A study of Homo sapiens with 12 samples.

Results

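NRF2, its inhibitor KEAP1 and 7 genes of the NRF2 antioxidant program were followed in HuH-7 cells under SLMP53-2. The members were NFE2L2 (the gene of NRF2), KEAP1, NQO1, HMOX1, TXNRD1, SRXN1, PGD, ABCC2 and ABCC3, and every gene probe that the scanner files named for one of them was taken. This gave 9 genes with 10 probes, since ABCC2 has 2, among 41000 gene probes with 29123 gene names. HuH-7 is a human hepatocellular carcinoma cell line with mutant p53, and all 3 groups were of this line. The cells received DMSO, 28 µM SLMP53-2 or 42 µM SLMP53-2 for 24 h, the doses being 2 and 3 times the IC50. SLMP53-2 was made as a compound to reactivate mutant p53, and DMSO was its solvent control. Part of the sample labels write 48 µM for the higher dose, which is called 42 µM here. Each group held 4 biological replicates on arrays of 1 colour, 12 arrays in all, which lay on 5 slides. In these bulk RNA samples, fewer cells with a transcript and less of the transcript per cell cannot be told apart.

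NRF2 is a transcription factor that KEAP1, an adaptor of a CUL3 ubiquitin ligase, marks for destruction in unstressed cells. Oxidants and electrophiles modify cysteines of KEAP1, and NRF2 then accumulates, pairs with a small MAF protein and binds antioxidant response elements in its target genes. The targets detoxify quinones (NQO1), degrade heme (HMOX1), keep thioredoxin and peroxiredoxins active (TXNRD1, SRXN1), supply NADPH (PGD) and export conjugates from hepatocytes (ABCC2, ABCC3). NRF2 itself is controlled largely through its protein, which these arrays did not measure.

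Values are log2 intensities after background correction and quantile normalization, so that 1 unit is a doubling, and levels of different probes are compared only to mark dim ones. Of the spots for genes, between 65.0% and 85.0% on an array were well above background. All 10 member probes were well above background on all 12 arrays, with 0 saturated spots. All 10 hepatocyte markers examined, ALB, AFP and HNF4A among them, were well above background on every array, and 0 of 10 were past the limits at either dose (1 lower at 28 µM without its replicate 4). PTPRC, the pan-leukocyte marker, was well above background on 0 arrays, while CD14, CD3E and CD79A were so on 12. Each of 3 endothelial and 4 fibroblast markers was also well above background on some arrays, VWF and COL3A1 on all 12. This flag alone therefore does not tell the cell type. The median of 5 targets of ATF4 (ASNS, TRIB3, CHAC1, DDIT3 and SESN2) lay 1.84 to 2.89 above the DMSO mean on 7 of the treated arrays and at -0.04 on 28 µM replicate 4. This array therefore stands apart from its group, and the calls and changes of the members at 28 µM are given with it and without it.

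SRXN1 and ABCC3 rose at 42 µM past both limits, which were a Benjamini-Hochberg adjusted p below 0.05 over 33467 probes in limma and a change of 0.6 or more on the log2 scale. ABCC2 was above DMSO by 0.70 on probe 1, which missed the limit on p, and by 0.54 on probe 2, which missed both limits. These 4 probes were higher on every treated array of either dose than on any DMSO array. NFE2L2, KEAP1 and NQO1 lay near the DMSO level at 42 µM, and HMOX1, TXNRD1 and PGD lay between 0.33 and 0.56 above it with overlapping arrays. The 2 called probes of 10 stand beside 1.41% of all probes called higher at 42 µM, and 0 of 10 fell beside 1.23% called lower. Without 28 µM replicate 4 the calls were 3 at 42 µM, beside 2% of all probes, and 1 at 28 µM, beside 1.31%. The 4 of 10 probes without overlap stand beside 5.82% of all probes at 42 µM and 2.69% at 28 µM (7% without 28 µM replicate 4, where 4 of 10 were again apart). At 28 µM 0 member probes were called, as were 0% of all probes in limma, and 1 member probe, ABCC2 probe 1, beside 1.36% of all probes, was higher by the fold limit at an unadjusted p below 0.05. Without 28 µM replicate 4 these were 3, SRXN1, ABCC2 probe 1 and ABCC3, beside 2.57%. At 42 µM 3 probes met this rule beside 2.93%. Between 42 and 28 µM, 0 member probes were called beside 0% of all probes, and 0 had an unadjusted p below 0.05 of any size, beside 1.05% of all probes higher and 1.39% lower. Both doses were set against the same DMSO arrays, so their changes are not independent.

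**Figure D1:**
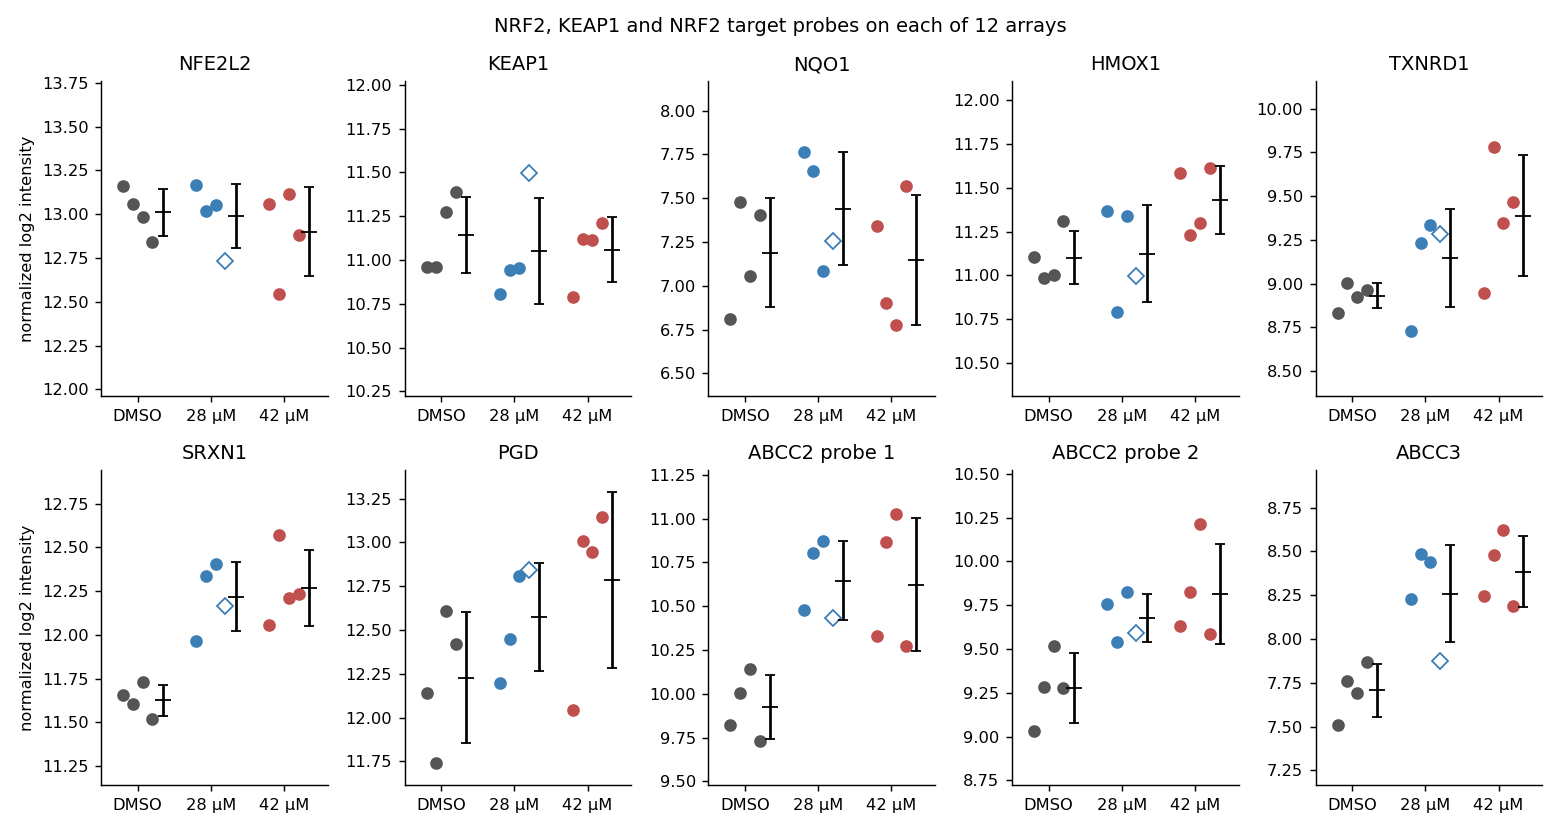
Normalized log2 intensity of each member probe on the 12 arrays, by group (DMSO grey, 28 µM blue, 42 µM red). The open diamond is 28 µM replicate 4, the bars are mean ± SD (n = 4), and all panels span the same range of log2 units, each around its own level. For SRXN1, both ABCC2 probes and ABCC3 all treated arrays lie above all DMSO arrays, while the groups overlap for the other 6 probes.

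Of the regulators, NFE2L2 encodes NRF2. Its probe read 13.16, 13.06, 12.99 and 12.84 on DMSO, 13.16, 13.02, 13.05 and 12.73 at 28 µM and 13.06, 12.55, 13.12 and 12.88 at 42 µM. The groups overlapped, and the lowest array was 42 µM replicate 2. The change was -0.02 at 28 µM (95% interval -0.33 to 0.29, adjusted p = 0.972) and -0.11 at 42 µM (-0.42 to 0.20, adjusted p = 0.815). KEAP1 encodes the inhibitor that holds NRF2 low. It read 10.96, 10.96, 11.27 and 11.39 on DMSO, 10.81, 10.94, 10.96 and 11.50 at 28 µM and 10.79, 11.12, 11.12 and 11.21 at 42 µM. KEAP1 was highest of all on 28 µM replicate 4, and NFE2L2 was lower there than on any DMSO array. KEAP1 changed by -0.09 at both doses (SE 0.16 for each, adjusted p = 0.862 and 0.888), and by -0.24 at 28 µM without replicate 4 (adjusted p = 0.452). In this fit the intervals of both genes leave out a change of 0.6 in either direction at both doses. With the processed signal scaled to its 75th percentile, NFE2L2 changed by -0.34 (SE 0.18) and KEAP1 by -0.22 (SE 0.19) at 42 µM. The exclusion is therefore given for the main fit only.

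NQO1, a quinone reductase that serves as a standard readout of NRF2, read 6.81, 7.48, 7.05 and 7.41 on DMSO. It read 7.76, 7.66, 7.08 and 7.26 at 28 µM and 7.34, 6.90, 6.78 and 7.57 at 42 µM. The SD within a group was 0.31 to 0.37, and the 3 groups overlapped. The probe was dim, with a mean of 7.19 on DMSO, where the leukocyte marker CD3E had a mean of 7.14. How far a change is compressed at that level was not tested. The change was 0.25 at 28 µM (95% interval -0.21 to 0.71, adjusted p = 0.689) and -0.04 at 42 µM (-0.50 to 0.42, adjusted p = 0.963). In this fit a rise of 0.6 thus lay outside the interval at 42 µM and within it at 28 µM. With the processed signal scaled to its 75th percentile, the change at 42 µM was 0.10 with an SE of 0.33, against an SE of 0.21 here. That exclusion is likewise stated for the main fit only, and for the signal of this dim probe.

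HMOX1, the inducible heme oxygenase that BACH1 represses, is measured by 10 spots per array. On 1 array their SD was 0.18 to 0.26, so the mean of the spots has an SE of at most 0.08. HMOX1 read 11.10, 10.98, 11.00 and 11.31 on DMSO, 11.37, 10.79, 11.34 and 11.00 at 28 µM and 11.58, 11.23, 11.30 and 11.62 at 42 µM. Replicates 1 and 4 at 42 µM were above all DMSO arrays, and the other two lay within the DMSO range. The change was 0.02 (adjusted p = 0.966, SE 0.15) at 28 µM and 0.33 (unadjusted p = 0.0467, adjusted p = 0.314, SE 0.15) at 42 µM. On the 3 slides that held both groups, the 42 µM array was higher than the DMSO array by 0.27, 0.23 and 0.32.

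TXNRD1, the cytosolic thioredoxin reductase, read 8.83, 9.002, 8.93 and 8.96 on DMSO, the narrowest spread of the 10 probes there (SD 0.07). It read 8.73, 9.23, 9.34 and 9.29 at 28 µM and 8.95, 9.78, 9.35 and 9.47 at 42 µM. Replicate 1 lay below the DMSO range at 28 µM and within it at 42 µM, and the other 3 of each dose lay above all of them. The change was 0.22 (adjusted p = 0.673, SE 0.17) at 28 µM and 0.46 at 42 µM (95% interval 0.08 to 0.83, adjusted p = 0.205).

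SRXN1, the sulfiredoxin that restores peroxiredoxins after overoxidation, was one of the 2 members called at 42 µM. Its probe lies at chr20:627563-627622 of hg19 on the minus strand. SRXN1 read 11.66, 11.60, 11.73 and 11.52 on DMSO, 11.97, 12.34, 12.40 and 12.16 at 28 µM and 12.06, 12.57, 12.21 and 12.23 at 42 µM. The lowest treated array was above the highest DMSO array, and 28 µM replicate 4 lay among the other treated arrays. SRXN1 rose by 0.64 at 42 µM, which is 1.56-fold (adjusted p = 0.0239, SE 0.13, 95% interval 0.35 to 0.93). At 28 µM the change was 0.59 (adjusted p = 0.174, SE 0.13) and 0.61 without replicate 4 (adjusted p = 0.0524). On slides that held both groups it was higher by 0.75, 0.45 and 0.43 at 28 µM and by 0.54, 0.84 and 0.61 at 42 µM. The call at 42 µM did not hold with the slide as a block (0.66, adjusted p = 0.0598). It was also lost without DMSO replicate 1 (adjusted p = 0.0609), 2 (0.0785) or 4 (0.0736) and without 42 µM replicate 2 (0.0907), at changes of 0.54 to 0.65.

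PGD, 6-phosphogluconate dehydrogenase of the pentose phosphate pathway, was read by a probe at chr1:10478911-10478970 of hg19 on the plus strand. The probe is shown because it carries the most variable of these readings:
PGD probe: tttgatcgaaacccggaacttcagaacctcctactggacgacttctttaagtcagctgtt
PGD read 12.14, 11.74, 12.61 and 12.42 on DMSO, 12.20, 12.45, 12.81 and 12.84 at 28 µM and 12.04, 13.01, 12.94 and 13.15 at 42 µM. The DMSO arrays alone ran from 11.74 to 12.61, and 42 µM replicate 1 lay among them while the other 3 lay above all of them. The change was 0.35 (adjusted p = 0.636, SE 0.25) at 28 µM and 0.56 at 42 µM (95% interval 0.02 to 1.10, adjusted p = 0.301). Replicate 1 of both doses lay on the same slide as DMSO replicate 4, and PGD was lower than that array by 0.22 at 28 µM and 0.37 at 42 µM, whereas it was higher by 0.23 to 1.20 in the comparisons on the other slides. The part of the slide in this was not tested.

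ABCC2, the export pump of the bile canaliculus known as MRP2, had 2 probes, at chr10:101611322-101611381 and chr10:101611516-101611575 of hg19 on the plus strand. The sequence of the first is shown as the probe with the largest change of the members at 42 µM:
ABCC2 probe 1: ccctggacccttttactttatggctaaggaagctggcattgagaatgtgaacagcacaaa
Probe 1 read 9.82, 10.00, 10.14 and 9.73 on DMSO, 10.48, 10.80, 10.87 and 10.43 at 28 µM and 10.33, 10.87, 11.03 and 10.27 at 42 µM. Probe 2 read 9.03, 9.28, 9.52 and 9.28 on DMSO, 9.76, 9.54, 9.83 and 9.59 at 28 µM and 9.63, 9.83, 10.22 and 9.59 at 42 µM. On both probes all 8 treated arrays, 28 µM replicate 4 included, were above the highest DMSO array. On probe 2 the margin was small, with 9.54 on 28 µM replicate 2 against 9.52 on DMSO replicate 3. Probe 1 was higher by 0.72 (adjusted p = 0.195, SE 0.18) at 28 µM and 0.70 (adjusted p = 0.0564, SE 0.18) at 42 µM. It was past both limits at 42 µM without 28 µM replicate 4 (0.70, adjusted p = 0.0461) and without 42 µM replicate 4 (0.82, adjusted p = 0.0397). Of the 21 alternative settings described below, 18 left it uncalled at 42 µM, and over all of them its change ran from 0.56 to 0.82. Probe 2 was higher by 0.40 (adjusted p = 0.353, SE 0.15) at 28 µM and 0.54 (adjusted p = 0.0795, SE 0.15) at 42 µM. The probes thus had one direction, with overlapping 95% intervals at each dose. ABCC2 was higher on all slides that held both groups at either dose, by as little as 0.07 for probe 2 on 28 µM replicate 4.

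ABCC3, the export pump of the basolateral hepatocyte membrane known as MRP3, read 7.51, 7.76, 7.69 and 7.87 on DMSO. It read 8.23, 8.49, 8.44 and 7.88 at 28 µM and 8.25, 8.48, 8.62 and 8.19 at 42 µM. On 28 µM replicate 4 it was above the highest DMSO array by less than the spread of either group, while the other 7 treated arrays were clearly apart. ABCC3 rose by 0.68 at 42 µM, which is 1.60-fold (adjusted p = 0.0318, SE 0.15, 95% interval 0.35 to 1.01). At 28 µM the change was 0.55 (adjusted p = 0.216, SE 0.15), and without replicate 4 it was 0.68 and past both limits (adjusted p = 0.0257, SE 0.14). On slides that held both groups it was higher by 0.93, 0.36 and 0.19 at 28 µM, the last with replicate 4, and by 0.38, 0.79 and 0.86 at 42 µM. The call at 42 µM did not hold with the slide as a block (0.67, adjusted p = 0.103). It was lost without DMSO replicate 1 (adjusted p = 0.0942), 2 (0.0867), 3 (0.0736) or 4 (0.0587), and without 42 µM replicate 1 (0.0535), 2 (0.118) or 3 (0.0885), at changes of 0.60 to 0.73. The probe lies at chr17:48768701-48768760 of hg19 on the plus strand.

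**Figure D2:**
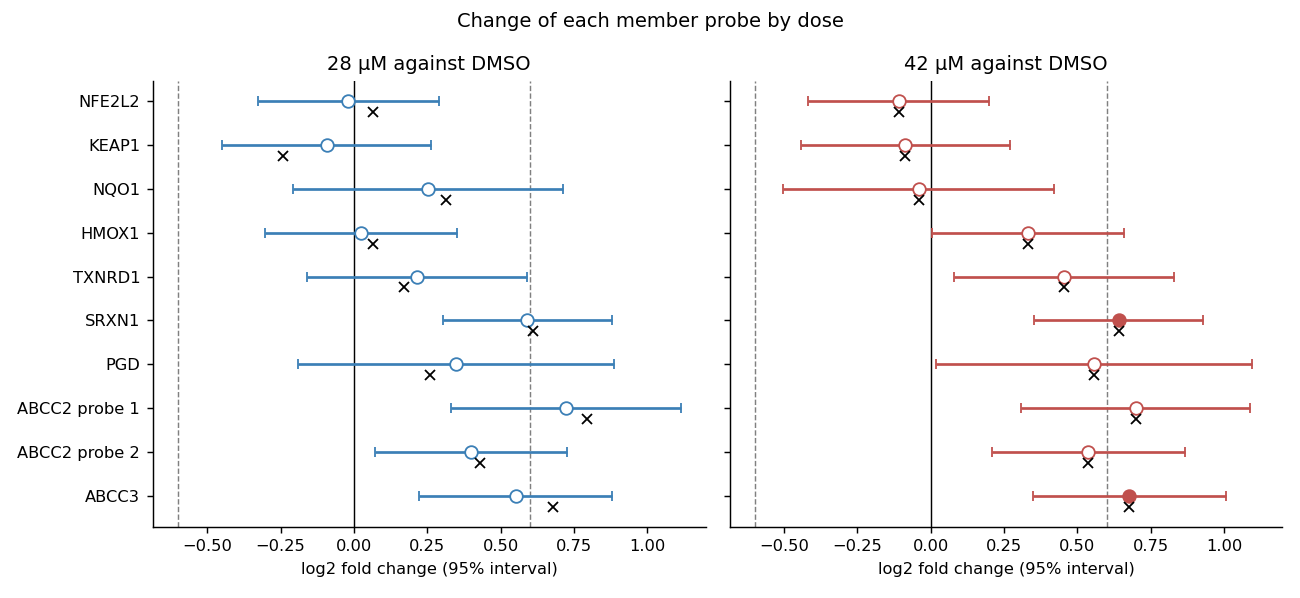
Log2 fold change of each member probe against DMSO at 28 µM (left) and 42 µM (right), with 95% intervals from limma. Filled points passed both limits, dashed lines mark a change of 0.6 either way, and crosses give the fit without 28 µM replicate 4. SRXN1 and ABCC3 at 42 µM are the filled points, and NFE2L2, KEAP1 and NQO1 are centred near 0 there.

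No difference between the doses was detected for any member probe. Going from 28 to 42 µM, SRXN1 changed by 0.05 (95% interval -0.24 to 0.34), ABCC2 probe 1 by -0.02 (-0.42 to 0.37), ABCC2 probe 2 by 0.14 (-0.19 to 0.47) and ABCC3 by 0.13 (-0.20 to 0.45). Without replicate 4 the changes at 28 µM against DMSO were 0.79 for ABCC2 probe 1 (adjusted p = 0.0565), 0.43 for ABCC2 probe 2 (adjusted p = 0.235), 0.31 for NQO1, 0.26 for PGD, 0.17 for TXNRD1, 0.07 for HMOX1 and 0.07 for NFE2L2. None of these was past the limits, and the last 5 had adjusted p of 0.547 or more. ABCC3 differed between the doses by -0.001 once 28 µM replicate 4 was left out. HMOX1 differed by 0.31 (-0.02 to 0.63) and NQO1 by -0.29 (-0.75 to 0.17). The adjusted p was 0.9995 for every member probe. Over the 10 probes the median change was 0.30 at 28 µM (0.29 without replicate 4) and 0.50 at 42 µM, against medians of all tested probes of -0.01 at both.

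On 28 µM replicate 4, 7 of 10 member probes were above all DMSO arrays, beside 24.1% of all probes, and 1 was below them all. The 7 include KEAP1, at 0.35 above the DMSO mean where the other 28 µM arrays were at -0.34 to -0.19, and ABCC3, which was barely above the highest DMSO array. On the other treated arrays 5 to 8 of 10 were above, beside 20% to 26.7% of all probes. The median difference of the members from the DMSO mean was 0.33 on this array and 0.25 to 0.66 on the other 7. SRXN1 was 0.54 above the DMSO mean there, ABCC2 probe 1 was 0.51, PGD was 0.61 and TXNRD1 was 0.36. ABCC3 was 0.17 above it, against 0.52 to 0.78 on the other 28 µM arrays, and the 5 ATF4 targets were at -0.04 against 1.97 to 2.24. Against DMSO replicate 3, which lay on the same slide, SRXN1 was higher by 0.43, ABCC2 probe 1 by 0.29 and PGD by 0.23. TXNRD1 was higher by 0.36, ABCC3 by 0.19 and ABCC2 probe 2 by 0.07. With 1 such array there was no test of this pattern, and its cause was not tested.

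**Figure D3:**
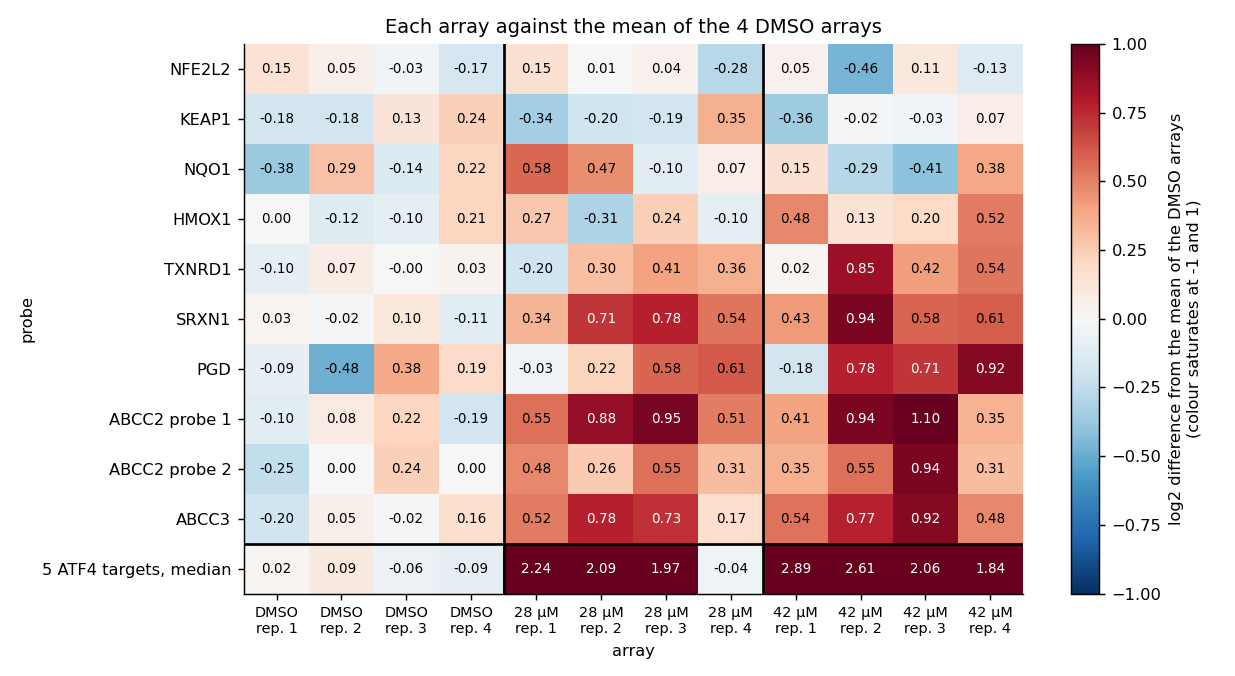
Log2 difference of each array (columns) from the mean of the 4 DMSO arrays for each member probe (rows) and, in the bottom row, for the median of 5 ATF4 targets, with colour saturating at -1 and 1. On 28 µM replicate 4 the ATF4 targets lie at -0.04, while SRXN1 lies at 0.54 and ABCC2 probe 1 at 0.51.

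The promoters were searched for the core of the antioxidant response element, TGACNNNGC, on both strands. This motif can overlap an AP-1 site, TGACTCA, with which it shares its first letters. RefSeq promoters of GRCh38.p14, 250 bases before to 50 bases after a gene's start, were matched by symbol for 7 of the 9 genes, with 10 promoters, and HMOX1 and ABCC3 had no entry. The motif was in 4 of the 10 promoters, of KEAP1, TXNRD1 (in both of its promoters) and PGD, and in 13.3% of all 35116 promoters. The windows that lie wholly before a start are shown with the motif in capitals, as they differ in the 3 free letters. KEAP1 holds 2, from chr19:10502784-10502812 and chr19:10502807-10502835, both on the minus strand. TXNRD1 holds those from chr12:104215670-104215698 and chr12:104286920-104286948, and PGD that from chr1:10398853-10398881, all on the plus strand:
KEAP1 first window: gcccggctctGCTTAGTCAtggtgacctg
KEAP1 second window: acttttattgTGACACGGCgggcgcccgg
TXNRD1 first window: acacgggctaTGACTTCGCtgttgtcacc
TXNRD1 second window: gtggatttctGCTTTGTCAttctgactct
PGD window: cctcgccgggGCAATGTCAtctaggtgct
The KEAP1 first, TXNRD1 second and PGD windows hold the motif on the opposite strand, read here as its reverse complement. A further match of TXNRD1 reaches the start itself. In the promoters of SRXN1, ABCC2, NFE2L2 and NQO1 these letters were not found within the window, and sequence farther from a start was not searched. The 3 genes with a match were not called at either dose, but the called ABCC3 could not be searched. Whether a match goes with a change was therefore not tested.

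The wider NRF2 pathway was described by 52 other genes, of which 51 were tested, GSTA1 being the one that did not pass the filter on dim probes. Each gene stands by its brightest probe. At 42 µM, 4 of 51 were called higher and 0 lower, beside 1.57% of genes called higher and 1.42% called lower over all genes. The list's median change was 0.04. By arrays without overlap, 7 of 51 were higher at 42 µM than on DMSO and 8 of 51 lower, beside 5.93% and 7% of all genes. At 28 µM, 0 of 51 were called beside 0% of genes in either direction. Without 28 µM replicate 4, limma called 6 higher and 1 lower at 42 µM (all genes, 2.23% and 1.87%) and 3 higher and 2 lower at 28 µM (1.45% and 0.986%). The additions at 42 µM, seen only after the values were known, were SLC7A11 (1.81, adjusted p = 0.0196), the heme transporter SLC48A1 (0.65, adjusted p = 0.0170) and, lower, GPX2 (-1.19, adjusted p = 0.00936). The 4 calls at 42 µM were 0 with the slide as a block, 0 without DMSO replicate 2 or 42 µM replicate 2, and 2 without DMSO replicate 1, 3 or 4, 28 µM replicate 3 or 42 µM replicate 1 or 3.

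The regulators and partners of NRF2 held 3 of the 4 genes called higher at 42 µM. SQSTM1, the autophagy receptor p62 that binds KEAP1 and is itself an NRF2 target, was 13.12 ± 0.14 on DMSO and 14.50 ± 0.14 at 42 µM (SD, n = 4). It rose by 1.39 (adjusted p = 0.0112, SE 0.18). It read 13.53 on 28 µM replicate 4, higher than on DMSO, while replicates 1 to 3 of that dose read 14.26 to 14.43. NFE2L1, a relative of NRF2 that drives proteasome genes, rose by 0.93 (11.46 ± 0.20 to 12.40 ± 0.28, adjusted p = 0.0151). MAFG, a small MAF partner of NRF2, rose by 0.83 (12.18 ± 0.23 to 13.01 ± 0.26, adjusted p = 0.0404). The other 8 genes of this list, among them CUL3, BACH1, MAFF and MAFK, were not called.

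Of the glutathione list, 0 of 9 were called at 42 µM. The glutamate-cysteine ligase subunits GCLC and GCLM, the first step of glutathione synthesis, changed by 0.18 (adjusted p = 0.736) and 0.14 (adjusted p = 0.702). SLC7A11, the cystine importer and also a target of ATF4, had the largest change of the pathway genes at 42 µM, 1.81 (adjusted p = 0.0904, SE 0.53). It read 6.91 on 28 µM replicate 4, within the DMSO range, and 7.31 on 42 µM replicate 2 against 8.91 to 9.80 on the other 42 µM arrays. Without 28 µM replicate 4, SLC7A11 (2.17, adjusted p = 0.0206), SQSTM1 and MAFG were called higher at 28 µM. The selenium-dependent peroxidase GPX2 (-1.32, adjusted p = 0.0158) and AKR1C3 (-0.63, adjusted p = 0.0283) were called lower. GPX2 was named after its values were seen, and AKR1C3 as the gene of its list with the largest change at 42 µM.

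Among the 5 genes of NADPH supply, IDH1, the cytosolic NADP-dependent isocitrate dehydrogenase, rose by 0.64 at 42 µM (12.71 ± 0.30 to 13.35 ± 0.08, adjusted p = 0.0421). Of the 4 thioredoxin partners, TXN, GLRX, PRDX1 and PRDX6, all had values below 0 at 42 µM, from -0.50 to -0.16, as did 54.2% of all genes, and 0 of 4 were called. The 6 heme and iron genes ran from -0.29 to 0.65 with 0 called, and the ferritin chains FTH1 and FTL changed by 0.21 and 0.51 (adjusted p = 0.593 and 0.551). Of the 16 genes of detoxification and export, 0 were called, with a median of -0.05. The other exporters of the ABCC family on the list, ABCC1, ABCC4 and ABCC5, changed by 0.02, 0.003 and -0.09 at 42 µM (adjusted p = 0.966, 0.997 and 0.834), whereas ABCC2 and ABCC3 were at 0.54 to 0.70. ABCC1 and ABCC4 were dim, at 7.33 and 6.98 on DMSO. ABCG2, another exporter of the list, changed by 0.64 at 28 µM (adjusted p = 0.474) with all arrays higher, as were 2.78% of all genes. At 42 µM it changed by 0.16 (adjusted p = 0.891), reading 9.16 on replicate 3 and 10.64 to 11.00 on the others. The difference between these genes was not tested. The 5 aldo-keto reductases of the list had values on both sides of 0 at 42 µM, 0.36 for AKR1B10, 0.12 for AKR1C1, -0.20 for AKR1C2, -0.53 for AKR1B1 and -0.58 for AKR1C3, with adjusted p from 0.123 to 0.841.

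Of 12 other antioxidant enzymes, 0 were called at 42 µM or 28 µM, with medians of -0.11 and 0.03, the latter being -0.11 without 28 µM replicate 4. The change of greatest size was that of GPX3, the secreted glutathione peroxidase, at -0.77 (adjusted p = 0.330, SE 0.36). SOD1, the cytosolic superoxide dismutase, changed by -0.59 at 42 µM (adjusted p = 0.0868, SE 0.17). It was among 4 of the 12 genes that were lower on all 42 µM arrays than on any DMSO array, as were 7% of all genes. Catalase (CAT) changed by 0.004 (adjusted p = 0.995).

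**Figure D4:**
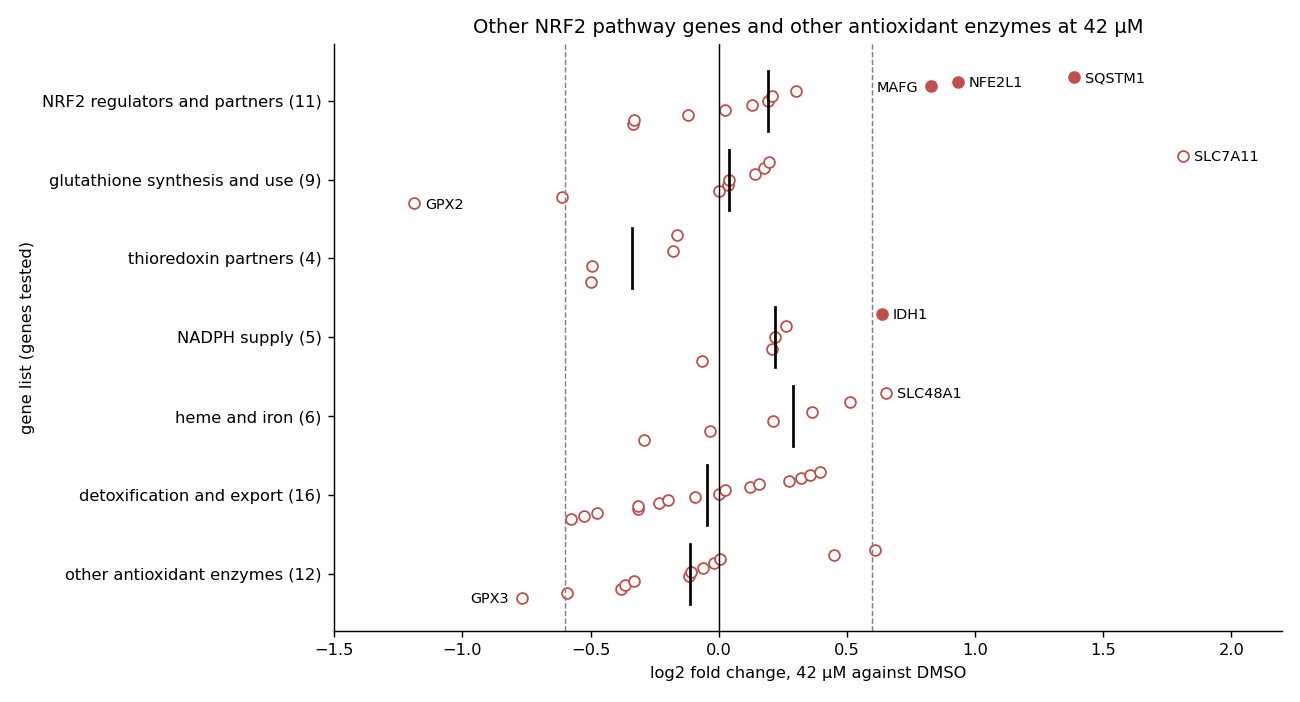
Log2 fold change at 42 µM against DMSO for the tested genes of 6 NRF2 pathway lists and of the other antioxidant enzymes, 1 point per gene by its brightest probe. Filled points passed both limits, black bars are list medians and dashed lines mark 0.6. SQSTM1, NFE2L1, MAFG and IDH1 are filled, and GPX2, SLC48A1, SLC7A11 and GPX3 are named without being called.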

How the data were processed

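Total RNA of 12 cultures was hybridised to 1-colour Agilent arrays. The authors deposited the Feature Extraction output of each array, which holds intensities before normalization (version 10.7.3.1 per the submitters' processing notes), and a table of log2 values that they had background-corrected by the Edwards method and quantile normalized. Reading and fitting were done in R 4.3.3. Edwards correction (limma 3.58.1) was run on all spots, and flagged outliers and control spots were then dropped. Values were put on the log2 scale and quantile normalized, and the spots of a probe were averaged. A probe was kept when it was well above background on at least 2 arrays of a group, which left 33467. The share of spots above background and the number of arrays limit the precision, since arrays have no read depth.

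One limma model (lmFit, eBayes) held all 12 arrays in 3 groups and gave two-sided tests with Benjamini-Hochberg adjustment over all probes of a comparison. A call needed both adjusted p below 0.05 and 0.6 or more on the log2 scale, while the methods also name 2-fold. Intervals are 95%. Within-slide values are differences of 2 arrays. Every member probe is named. Of the other lists, genes past the limits and the gene with the largest change at 42 µM are named by rule, and other genes named with values were chosen after these were seen. The level of one listed gene is not reported here. The members and lists were chosen with earlier results of these data known. Symbols are those of the scanner files or, for 68.5% of the probes, of RefSeq. The scanner files place probes on hg19, and no annotation of exons or UTRs on that build was used here. The fits were checked on simulated data. Tried instead were normexp (offset 50), scaling to the 75th percentile of either the processed signal or the Edwards values, no filter or a stricter one, the authors' values, the slide or replicate number as a block, only the groups compared, a log2 limit of 1, and leaving out each array. Promoters and plots used Python 3.11.15 and matplotlib 3.10.9.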

Additional observations from a re-analysis of the deposited data

How the results depend on the processing

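Over 30 member changes and 21 alternatives each, 630 in all, 610 kept their side of the limits, 4 passed where the value above did not, 16 lost the call and 0 turned direction, a turn of an uncalled value being counted only beyond 1 replicate SD. Only SRXN1 and ABCC3 at 42 µM had a call to lose. SRXN1 lost it in 7 of 21 alternatives and ABCC3 in 9 of 21. Most of the 610 were uncalled values that stayed uncalled, so that count does not measure how stable the calls were. The member probes called at 42 µM were 0 with the processed signal and 1 with the Edwards values, each scaled by its 75th percentile, 0 with the slide as a block and 0 at a log2 limit of 1. SRXN1 changed by 0.53 and 0.49 under these scalings and ABCC3 by 0.85 under the first (adjusted p = 0.0503). The other NRF2 pathway genes called at 42 µM were 2 with either scaling, 0 with the slide as a block, 8 with only the groups compared and 1 at a log2 limit of 1. Of the other antioxidant enzymes, 1 was called with the scaled Edwards values. Leaving out single arrays gave 0 to 1 member probes at 28 µM and 0 to 3 at 42 µM, and 0 to 5 and 0 to 7 of the other NRF2 pathway genes. The cause of these moves was not tested. Nothing in the labels ties arrays of one number, and the data left a pairing unsettled: deviations of same-numbered arrays correlated above 0.1 in 7 of 12 pairs (-0.46 to 0.62, median 0.22) and those of differently numbered ones in 11 of 36 (median -0.07), and an array was most like its own number in 8 of 24 comparisons with another group. The pair at 0.62, replicate 1 of 28 and 42 µM, also shared a slide, so number and slide cannot be told apart in it. Of 9 pairs of arrays on one slide, 5 correlated above 0.1 (-0.23 to 0.62). With the replicate block, 3 member probes were called at 42 µM, ABCC2 probe 1 being the addition (adjusted p = 0.00840), and 7 of the other pathway genes. The 4 arrays a group limit what can be seen of the more variable probes: the 95% interval of PGD at 42 µM ran from 0.02 to 1.10.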

Other observations

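Of all probes tested, those whose values over the 12 arrays were most like ABCC2 probe 1, the member probe with the largest change at 42 µM, were MST1P2 (Pearson r = 0.97), MST1 (0.95), CHKA (0.95), SUGP2 (0.94) and WDR59 (0.94), among 33401 compared. The r describes these arrays, which include the difference between the groups, and carries no test. MST1 encodes the hepatocyte growth factor-like protein made by liver, and MST1P2 is a pseudogene of it, so the 2 probes may read one transcript in part. MST1P2 changed by 1.39 and MST1 by 1.31 at 42 µM (adjusted p = 0.0186 and 0.0187), and by 1.29 and 1.13 at 28 µM. CHKA, choline kinase alpha, changed by 0.51 at 42 µM (adjusted p = 0.0695).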
